A study of Mus musculus with 23 samples.

Results

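Newly transcribed RNA was compared with unamplified total RNA in serum-treated mouse embryonic fibroblasts. The comparison used 8 of the 23 arrays of the series, chosen by their titles: 4 arrays of newly transcribed RNA and 4 of total RNA, all from serum-treated cultures. Every one of 12422 probe sets was tested, after 66 control probe sets had been left out. Both groups came from primary fibroblasts of e14.5 embryos, labelled C57/BLACK6 and ATF1 -/+, so that no array of either group represents cells with both Atf1 alleles. The cells were starved for 48 h in 1% dialysed serum and then kept for 2 h in 10% serum with 200 µM 4-thiouridine and a tritium-labelled cytidine tracer. The serum-starved arrays used for comparison came from cells kept in 1% serum during those 2 h, with the same nucleosides. Each title calls its array a biological replicate, but no label names the embryo or culture behind it, so p-values measure the spread between these arrays.

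4-thiouridine is a uridine analogue that enters RNA while it is being made, and the thiol group it carries lets that RNA be bound to an organomercurial matrix and released with a reducing agent. The bound fraction therefore holds RNA made while the nucleoside was present, and total RNA holds that RNA together with all older RNA of the cell. For a transcript that turns over quickly, a large part of the pool is renewed within a short pulse, and for a stable transcript a small part. After normalization, a transcript with a positive difference gave a larger part of the signal on newly transcribed than on total RNA arrays. These arrays also differ in amplification and capture, so the difference is not a measure of newly made RNA alone. It is not a rate, and a general change in the amount of RNA per cell does not appear in it.

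Amplification differed between both sides of the comparison. The titles set total RNA apart from amplified total RNA, the other kind of RNA with 4 arrays from serum-treated cells, while the label protocol speaks of a linear amplification for every array. The titles of the newly transcribed arrays do not use the word amplified. Newly transcribed RNA also went through capture, washing and precipitation, which total RNA did not. Amplification and capture cannot be told apart from the kind of RNA in this comparison. Values against amplified total RNA are therefore given further below, for some of the lists and named genes only.

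Signals of control transcripts along their length differed between the groups. The log2 difference between the 3' and the 5' probe set of the GAPDH control was 2.08 ± 0.86 (SD, n = 4) in newly transcribed RNA, -0.21 ± 0.11 in total RNA and 1.55 ± 0.75 in amplified total RNA. For the beta-actin control it was 2.16 ± 0.71, 0.37 ± 0.22 and 2.23 ± 0.55. In both controls each newly transcribed array lay above each total RNA array, so 5' ends gave less signal relative to 3' ends in newly transcribed and in amplified RNA than in total RNA. How far this moved the differences of single probe sets was not tested.

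**Figure D1:**
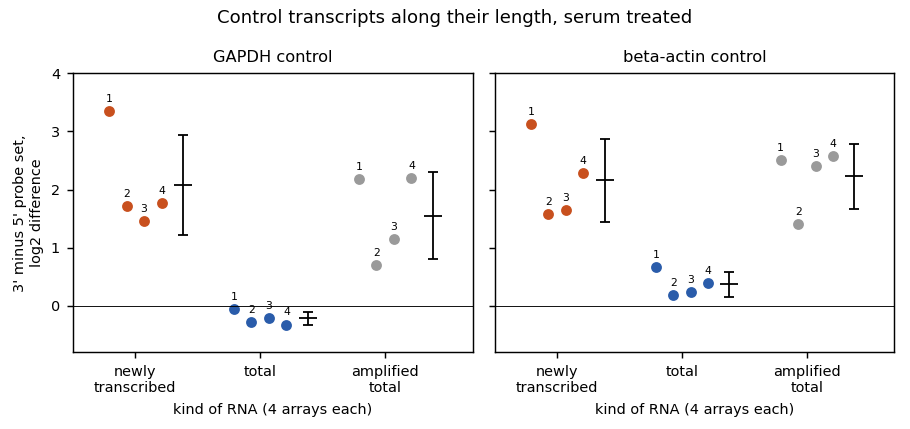
Log2 difference between the 3' and 5' probe sets of the GAPDH and beta-actin controls, with points for arrays 1 to 4 of each kind of RNA from serum-treated cells and bars for the mean and SD. The total RNA arrays lie between -0.32 and 0.67, below every newly transcribed and every amplified array.

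The newly transcribed arrays fell into pairs. Over all probe sets, arrays 1 and 4 correlated at 0.949 and arrays 2 and 3 at 0.983, but the correlations between those pairs were 0.871 to 0.887. Arrays 2 and 3 correlated with the total RNA arrays at 0.889 to 0.906, above their correlations with arrays 1 and 4, and arrays 1 and 4 correlated with total RNA at 0.805 to 0.838. The 4 total RNA arrays correlated with each other at 0.954 to 0.985. Counts are therefore also given with newly transcribed arrays 2 and 3 alone and with arrays 1 and 4 alone. A fit on a single pair leaves out the spread between the pairs. Its p-values and calls describe that pair only, and its calls can outnumber those made with all arrays. The median deposited signal per array was 24.2 to 46.9 in newly transcribed RNA, 45.95 to 50.5 in total RNA and 16.3 to 75.2 in amplified total RNA, and the number of arrays limits the precision.

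Fibroblast markers were present in both groups. Among 14 fibroblast marker genes measured, 4 were lower in newly transcribed RNA (2 without total RNA array 2, 3 or 4), none was higher, and the summed signal ran from 11680 to 20500 in newly transcribed and from 27340 to 33060 in total RNA. Vim, a fibroblast intermediate filament gene, is represented by a dim probe set, with 18.8 to 38.0 in newly transcribed and 14.1 to 35.0 in total RNA, and is no guide to the cell type here. Of 17 macrophage markers, 2 were called lower (Lyz2 and Aif1) and none higher. Aif1 was dim, with 0.926 to 6.22 in newly transcribed and 6.82 to 27.9 in total RNA. A dimmer probe set of Lyz2 gave 1.20 ± 0.41 and was not called. The count of lower markers was 7 without total RNA array 1 and 3 without newly transcribed array 2. It was 1 without newly transcribed array 1 or total array 3, and 0 without total array 2 or 4. The summed signal of the 17 markers was 5161 to 10970 in newly transcribed and 6098 to 15260 in total RNA, ranges that overlap. Defining markers of that list were not near 0: over all 23 arrays the mean log2(signal + 16) was 8.90 for C1qb, 8.81 for Cd68 and 8.71 for Csf1r. Of the markers of endothelium (10 genes), epithelium (12), skeletal muscle (18) and erythroid cells (6), none was called. Of 13 markers of neurons and glia 1 was called higher (Mbp, 1.05 ± 0.20). The other 12 had negative differences, none called, and the median of the list was -0.10. A dimmer Mbp probe set gave -0.02 and was not called. Among all 8251 genes 11% were called higher and 10.6% lower, and the macrophage and neural counts lay near or below these shares. Both kinds of RNA came from whole cultures, and a marker difference between them is not a measure of the number of cells of a type.

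A probe set was called when the limma p-value, adjusted over all 12422 probe sets by the Benjamini-Hochberg method, was below 0.05. By that rule 2376 probe sets (19.1%) differed between newly transcribed and total RNA, of which 1175 (9.46%) were higher and 1201 (9.67%) lower in newly transcribed RNA. At least a 2-fold difference was seen in 1743 of them, 819 higher and 924 lower. The groups did not overlap in 3052 probe sets (24.6%), and 2280 of the called probe sets were among these. Without any scaling between arrays the split was 762 higher against 1283 lower, and with each array scaled to the same median it was 1307 against 1005. The median difference of all probe sets was 0.02, or -0.09 without scaling and 0.06 after scaling to the median.

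The number of calls depended on which arrays were used. It fell to 1530 without total RNA array 2, 1541 without array 3 and 1539 without array 4, and it was 4005 with newly transcribed arrays 1 and 4 alone and 2983 with arrays 2 and 3 alone. Each of the 1175 and 1201 called probe sets kept its sign with either pair. They had been chosen with these same arrays, so this agreement and the overlaps that follow are partly built in and are no independent support. Of those called higher, 936 were also called with arrays 2 and 3 alone, 995 with arrays 1 and 4 alone and 792 with both. Of those called lower, the counts were 968, 1031 and 863.

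**Figure D2:**
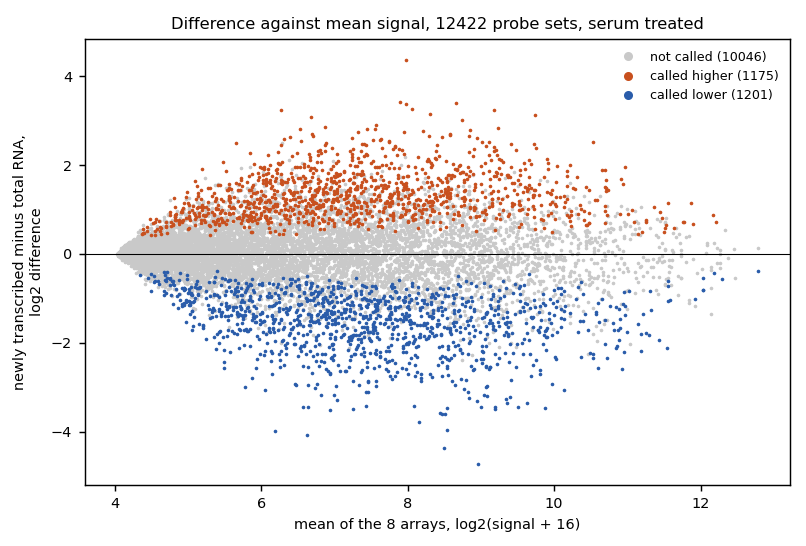
Log2 difference of newly transcribed minus total RNA for each of 12422 probe sets against its mean log2(signal + 16) over the 8 arrays, with the 1175 probe sets called higher in orange and the 1201 called lower in blue. Differences run from -4.73 (Ogn) to 4.37 (Nup54), and called probe sets are found at low and at high mean signal.

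Taking a gene by its brightest probe set, 906 of 8251 genes (11%) were called higher and 872 (10.6%) lower. Genes named below were, unless said otherwise, the 15 with the largest difference in each direction among those whose groups did not overlap, the 4 largest called members of each list, and a fixed set of serum-response and reference genes. Of the 30 genes with the largest differences, 29 were called under each alternative tried for the named genes, and Fmod was the exception. Differences are on the log2(signal + 16) scale, which understates those of dim probe sets, and are given ± the standard error of the fit.

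Nup54, Nup50 and Ints5 had the largest positive differences. Nup54, a component of the central channel of the nuclear pore, had normalized signals of 1430, 873, 503 and 2600 in newly transcribed arrays 1 to 4 and of 6.82, 63.4, 70.4 and 44.8 in total RNA arrays 1 to 4. The groups were far apart, with the lowest total RNA value in array 1. Its log2 difference was 4.37 ± 0.58 (limma adjusted p = 0.0021), the largest positive one among the genes named. Nup50, a nuclear pore protein involved in protein import, had 2310, 896, 1100 and 1250 against 62.3, 133, 124 and 136, and a difference of 3.39 ± 0.33 (limma adjusted p = 0.00074). Here newly transcribed array 1 stood highest and total array 1 lowest. Ints5, a subunit of the Integrator complex that processes small nuclear RNA, had 279, 1390, 1620 and 682 against 70.8, 75.8, 64.5 and 70.7. The total RNA values were close together while the newly transcribed values spread widely, and the difference was 3.26 ± 0.50 (limma adjusted p = 0.0038).

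Smarcd2, Nifk, Zmynd8 and Foxc2 came next. Smarcd2, a subunit of SWI/SNF chromatin remodelling complexes, had 1970, 2530, 2720 and 2950 in newly transcribed RNA and 236, 261, 307 and 295 in total RNA. Both groups were tight, and the difference of 3.13 ± 0.16 had a smaller error than those of the other 29 genes. Its dimmer probe sets showed no call, at 0.20, 0.56 and -0.83. Zmynd8, a reader of modified histones, differed by 3.07 ± 0.28 and Taf1d, a subunit of the RNA polymerase I initiation factor, by 2.84 ± 0.25. Both other Taf1d probe sets were called higher as well, at 3.24 and 1.47. Nifk, a nucleolar protein that binds Ki-67, differed by 3.15 ± 0.33, with 728 to 1100 against 37.6 to 140. Mak16 (2.82 ± 0.28) and Bysl (2.78 ± 0.39) are ribosome assembly factors. Foxc2, a forkhead transcription factor, had 677, 1410, 1430 and 1520 against 85.3, 154, 140 and 172, a difference of 3.02 ± 0.31. The signalling adaptor Traf6 differed by 2.80 ± 0.44, and its other probe sets were called higher too, at 1.96 and 1.57. Pdcd2 (2.85), the semaphorin Sema4b (2.81), Mfhas1 (2.77) and the desmosomal gene Pkp2 (2.75) completed the 15.

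Ogn, Nfix and Apoe had the largest negative differences. Ogn, a small leucine-rich proteoglycan of connective tissue, had 89.3, 64.3, 69.4 and 105 in newly transcribed RNA and 1290, 2980, 3640 and 3050 in total RNA. The newly transcribed values lay close together, total array 1 lay below the other total arrays, and the groups did not overlap. The difference was -4.73 ± 0.33 (limma adjusted p = 0.00032), and a further probe set of Ogn gave -3.45. Apoe, the lipid-carrying apolipoprotein E, had 13.6 to 179 against 1070, 866, 1330 and 955, a difference of -3.79 ± 0.51. Its newly transcribed values spread widely without reaching those of total RNA. A dim second probe set of Apoe did not differ (0.09 ± 0.21).

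Further genes that code for secreted, matrix or matrix-binding proteins were Pcolce, which promotes the trimming of procollagen (-3.45 ± 0.35), the collagen receptor Mrc2 (-3.44 ± 0.32), the TAM receptor ligand Gas6 (-3.36 ± 0.35), Apod (-3.45 ± 0.56) and the metalloproteinase inhibitor Timp2 (-3.49 ± 0.53). Fmod, a proteoglycan that binds collagen fibrils, differed by -3.43 ± 0.91 (limma adjusted p = 0.034). Its call was lost without newly transcribed array 1 (-2.77) or 4 (-3.18) and without total array 2 (-3.33), 3 (-3.01) or 4 (-3.35). Among membrane proteins, Cd99 differed by -3.60 ± 0.37 and Itm2a by -3.60 ± 0.44. Itm2a had 182, 46.8, 38.8 and 158 against 1030, 1470, 1280 and 1240, so that newly transcribed arrays 1 and 4 were higher than arrays 2 and 3 but below all total arrays. Npdc1, named for a role in neural differentiation, differed by -3.49 ± 0.62.

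The remaining genes were intracellular. Atp5e, the epsilon subunit of mitochondrial ATP synthase, had 15.9, 25.5, 16.8 and 23.8 against 321, 563, 557 and 247, a difference of -3.51 ± 0.28 (limma adjusted p = 0.0004). All newly transcribed values were dim. Hk1, a hexokinase, differed by -3.44 ± 0.25 and Elob, a subunit of the elongin complex, by -3.35 ± 0.42. Nfix, a nuclear factor I transcription factor, had 61.9, 43.3, 51.3 and 239 against 1300, 1670, 1800 and 1130, a difference of -3.96 ± 0.45. Its other probe set was called lower as well, at -2.23.

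**Figure D3:**
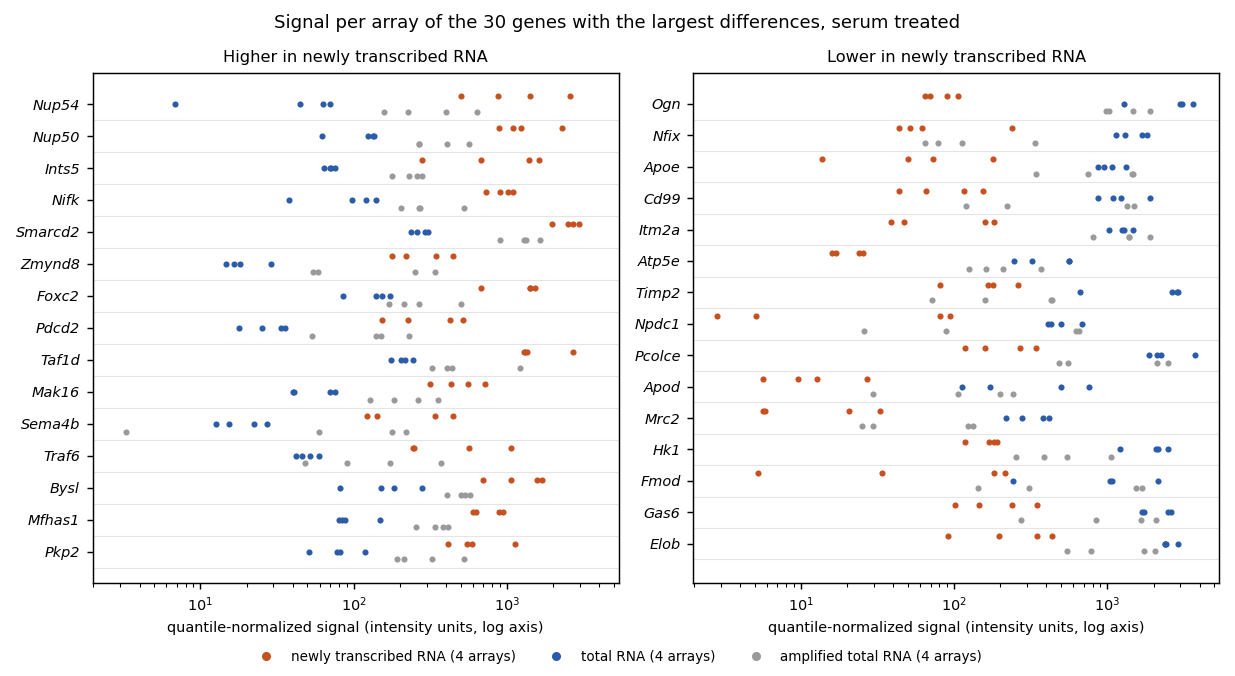
Quantile-normalized signal (log axis) on each array for the 15 genes with the largest positive differences (left) and the 15 with the largest negative ones (right), with 4 points per kind of RNA. Newly transcribed and total RNA do not overlap, by the rule that chose the 30 genes, and amplified total RNA lies above total RNA for Nup54 (157 to 638), where it overlaps newly transcribed RNA, and below total RNA for Nfix (64.8 to 339).

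The stretches before the start sites of a few of these genes are shown because they come from both ends of the comparison. They are the 150 bases upstream of the RefSeq transcript start (build GRCm38.p6), written 5′ to 3′ along the gene. Shown are the pair with the largest difference each way among the 30 genes that have a single promoter in the RefSeq table and the immediate early gene Fos. Capitals mark a match, on either strand, to the TATA box TATAAA, the CCAAT box, the GC box GGGCGG, the ETS-type core CCGGAAG, the E-box CACGTG and the cAMP response element core TGACGT, none of which contains another.
Nup54 (chr5:92435200-92435349, minus strand): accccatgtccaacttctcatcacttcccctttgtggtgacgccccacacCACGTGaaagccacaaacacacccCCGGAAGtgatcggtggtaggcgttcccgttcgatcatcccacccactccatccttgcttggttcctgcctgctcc
Nup50 (chr15:84923278-84923427, plus strand): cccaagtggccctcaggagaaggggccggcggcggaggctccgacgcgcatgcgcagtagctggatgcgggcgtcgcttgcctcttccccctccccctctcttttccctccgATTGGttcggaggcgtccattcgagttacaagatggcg
Fos (chr12:85473740-85473889, plus strand): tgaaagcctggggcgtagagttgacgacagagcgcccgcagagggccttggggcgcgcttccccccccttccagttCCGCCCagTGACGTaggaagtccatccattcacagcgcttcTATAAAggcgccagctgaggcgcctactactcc
Itm2a (chrX:107403361-107403510, minus strand): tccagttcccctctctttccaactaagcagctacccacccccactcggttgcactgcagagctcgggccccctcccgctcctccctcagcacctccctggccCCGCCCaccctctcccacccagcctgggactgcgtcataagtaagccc
Ogn (chr13:49607865-49608014, plus strand): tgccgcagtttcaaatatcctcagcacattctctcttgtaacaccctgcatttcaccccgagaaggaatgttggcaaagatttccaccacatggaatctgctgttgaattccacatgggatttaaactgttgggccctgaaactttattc
The Nup54 stretch holds CACGTG and CCGGAAG, that of Nup50 holds the reverse complement of CCAAT, and the Ogn stretch holds none of the motifs. Fos has TATAAA close to its start, with TGACGT and the reverse complement of GGGCGG before it, and Itm2a has the last of these alone. CG dinucleotides numbered 31 in the 250 bases before the start of Nup50, 15 for Fos, 11 for Nup54, 6 for Itm2a and 4 for Ogn.

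Over all called genes with a promoter in the table, the same features could be counted for 750 genes called higher and 722 called lower (82.8% of each), taking the first promoter listed. The median number of CG dinucleotides in 250 bases was 18 (quartiles 12 and 25) for genes called higher, 14 (9 and 20) for genes called lower, 14 (6 and 21) for the 5104 genes not called and 6 for all 32851 promoters of the table. The ETS-type core was found in 16.5% of genes called higher, 12.3% of those called lower, 11.6% of those not called and 6.91% of all promoters of the table. The cAMP response element core was found in 12.7%, 8.45%, 9.5% and 6.47% of them in that order. The GC box was found in 63.1%, 57.8%, 53.2% and 32.7%, and the CCAAT box in 38.3%, 36.1%, 35.5% and 33.8%. The E-box was found in 9.47%, 8.03%, 8.33% and 6.02%, and the TATA box in 6.8%, 7.62%, 9.95% and 12.4%. Genes on the array thus differed from the table as a whole whether called or not. These shares are descriptions, were not tested, and a match to a few letters is not a binding site.

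Gene lists were read against the shares of all 8251 genes, 11% called higher and 10.6% lower, with a median difference of 0.02. The immediate early transcription factors, whose genes respond to serum within minutes and whose messages are short-lived, had 11 of 25 members called higher and 1 (Maff) lower, with a median of 1.06. Without any 1 array, 8 to 12 were called higher. With newly transcribed arrays 2 and 3 alone 14 were called higher and none lower, and with arrays 1 and 4 alone 12 higher and 5 lower. Klf2, a Krüppel-like factor, had 142, 342, 210 and 136 against 5.05, 28.4, 40.2 and 8.23, a difference of 2.64 ± 0.40 (limma adjusted p = 0.0036). Every newly transcribed array exceeded every total array. Klf6 had 5610, 1800, 1980 and 4970 against 980, 917, 819 and 697, a difference of 1.88 ± 0.39, with arrays 1 and 4 well above arrays 2 and 3. Myc, a regulator of growth, had 297, 232, 338 and 188 against 118, 93.7, 90.6 and 119, and differed by 1.18 ± 0.20 (limma adjusted p = 0.0057).

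Fos, a subunit of the AP-1 transcription factor, had 1870, 1150, 547 and 2240 in newly transcribed RNA and 176, 483, 369 and 198 in total RNA. The groups did not overlap, though array 3 came near the highest total value, and the difference was 2.12 ± 0.49 (limma adjusted p = 0.021). The call was lost without total array 1 (1.91) or 4 (1.96) and with newly transcribed arrays 2 and 3 alone (1.44). Egr1, a zinc finger factor, had 2670, 597, 752 and 2580 against 503, 262, 457 and 198, a difference of 1.95 ± 0.56 (limma adjusted p = 0.046). Its call was lost when any array other than newly transcribed array 2 or 3 was left out, with 1.62 to 2.15. Ier2, Junb, Hes1 and Nr4a1 were not called, at 1.06 ± 0.41, 0.45 ± 0.57, 0.22 ± 0.33 and 0.55 ± 0.33. Ier2 was called higher without newly transcribed array 1 (1.39) and with arrays 2 and 3 alone (1.85). Junb had 156, 1020, 1000 and 413 against 331, 358, 580 and 273. Newly transcribed array 1 thus lay below all total arrays and arrays 2 and 3 above them, and with arrays 2 and 3 alone Junb was called higher (1.41) while arrays 1 and 4 alone gave -0.51. Hes1 likewise turned to -0.27 with arrays 1 and 4 alone.

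Feedback regulators of signalling had 6 of 20 members called higher and none lower, with a median of 0.63 and 4 to 8 called higher without any 1 array. Rgs2, which shortens G-protein signals, had 563, 210, 201 and 656 against 20.3, 65.0, 35.1 and 76.9, a difference of 2.60 ± 0.47. The groups did not overlap, and arrays 1 and 4 were again the highest. Socs2, a suppressor of cytokine signalling, differed by 2.21 ± 0.28 with 786 to 1160 against 146 to 356. Spred2, an inhibitor of the Ras pathway, differed by 1.30 ± 0.20. Socs3, a relative of Socs2, differed by 2.45 ± 0.61 (limma adjusted p = 0.027). Its call was lost when any array other than newly transcribed array 1 was left out, with 2.09 to 2.58. A dimmer probe set of Socs3 gave 0.33 ± 0.85 and was not called. Dusp1, a MAP kinase phosphatase, differed by 0.65 ± 0.16 (limma adjusted p = 0.027), a call that was lost without newly transcribed array 3 (0.62) or total array 2 (0.58), 3 (0.66) or 4 (0.67). Among mRNA decay factors 6 of 20 were higher and 1 lower, with a median of 0.65. Zfp36, whose product speeds the decay of messages with AU-rich elements, was not called (0.29 ± 0.30) and turned to -0.15 with arrays 1 and 4 alone. Its relative Zfp36l1 had 1590, 721, 1200 and 1910 against 187, 267, 298 and 313, a difference of 2.22 ± 0.31.

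Factors of RNA processing and ribosome assembly were also called higher more often than lower. Among splicing factors 17 of 59 were higher and 4 lower, with a median of 0.50, and 11, 10 and 11 were higher without total array 1, 3 or 4. With newly transcribed arrays 2 and 3 alone 20 were higher and 10 lower. Rbm14, an RNA-binding coactivator, had 403, 563, 422 and 398 against 71.9, 70.7, 69.4 and 72.5. The total values were nearly equal, and the difference of 2.39 ± 0.14 shared the smallest limma adjusted p of the named genes, 0.00025, with Smarcd2. Tra2b, an SR-like splicing factor, differed by 2.15 ± 0.37. The members called lower included Snrpg, a core protein of the spliceosomal particles (-1.96 ± 0.28).

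Ribosome biogenesis factors and other MYC targets had 9 of 30 members called higher and 2 lower, with a median of 0.64. The count of higher ones was 7 to 12 without any 1 array. With newly transcribed arrays 2 and 3 alone 19 were higher and 2 lower (median 0.80). With arrays 1 and 4 alone 9 were higher and 6 lower (median 0.08). Gar1, a protein of the pseudouridylation particles, had 2270, 2410, 2280 and 1860 against 487, 702, 591 and 597, a difference of 1.87 ± 0.15 (limma adjusted p = 0.00041). Both groups were tight and far apart. Nop56, a protein of the methylation particles, differed by 1.97 ± 0.26, and its second probe set was called higher at 1.27. Its partner Nop58 differed by 1.71 ± 0.26, and the nucleolar GTPase Gnl3 by 2.00 ± 0.28.

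C2H2 zinc finger genes, listed by their Zfp symbols, had 27 of 83 members called higher and none lower, with a median of 0.68. The count fell to 15, 15 and 16 without total array 2, 3 or 4, and to 14 with values as deposited. With newly transcribed arrays 2 and 3 alone 36 were higher and none lower, and with arrays 1 and 4 alone 40 higher and 3 lower. Zfp821 had 112, 153, 148 and 136 against 22.7, 22.8, 16.1 and 25.4, a difference of 2.02 ± 0.14. Zfp105 differed by 1.94 ± 0.19 and Zfp90 by 1.93 ± 0.16, with no overlap between groups. Chromatin modifying enzymes had 8 of 32 higher and none lower, and 5 higher without total array 2 or 4. With newly transcribed arrays 2 and 3 alone 11 were higher and 4 lower, and with arrays 1 and 4 alone 13 higher and 6 lower. Setdb1, a histone methyltransferase, differed by 1.47 ± 0.19. Homeobox factors had 5 of 63 higher and 3 lower, below the shares of all genes, with Hoxa4 (-1.58 ± 0.31) and Prrx1 (-1.83 ± 0.32) among the lower ones. Dimmer probe sets of Hoxa4 gave 0.39, 0.32 and -0.06, none of them called. The count of higher homeobox genes was 3, 1, 1 and 2 without total array 1, 2, 3 or 4, and 13 with newly transcribed arrays 2 and 3 alone.

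Stress and cell cycle genes were divided. Among p53 and stress targets 6 of 19 were higher and none lower, and 3 were higher without total array 2 or 4. Gadd45a, a growth-arrest and DNA-damage gene, had 1700, 893, 835 and 2380 against 261, 321, 153 and 285, a difference of 2.35 ± 0.38. Ddit4, an inhibitor of mTOR signalling, had 1290, 1240, 1300 and 1270 against 174, 414, 250 and 404, a difference of 2.06 ± 0.26. The newly transcribed values of Ddit4 were almost equal while those of total RNA varied. Among G2 and mitosis genes 7 of 26 were higher and 2 lower, and 4 were higher without newly transcribed array 1 or 2 or total array 1, 2 or 3. Plk1, a mitotic kinase, differed by 2.06 ± 0.23, whereas both dimmer probe sets gave -0.31 and averaging the probe sets ended the call (0.48). Growth arrest genes had 4 of 26 higher and 8 lower with a median of 0.35, and the median was -0.07 with newly transcribed arrays 2 and 3 alone. The count of lower ones was 5, 5 and 4 without newly transcribed array 1, 2 or 3 and 4 without total array 2, 3 or 4, and that of higher ones was 7 without newly transcribed array 3.

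Subunits of mitochondrial oxidative phosphorylation were the list with the most calls. Of 71 measured, 42 were lower in newly transcribed RNA and 4 higher, with a median of -0.98 and a summed signal of 17280 to 24010 in newly transcribed against 38010 to 46990 in total RNA. The count of lower ones was 33 to 40 without any 1 array, 39 with newly transcribed arrays 2 and 3 alone and 43 with arrays 1 and 4 alone. Atp5l, a subunit of the membrane part of ATP synthase, had 87.2, 160, 177 and 157 against 1810, 1880, 1290 and 1290, a difference of -3.31 ± 0.24 (limma adjusted p = 0.00032). The lowest total value lay far above the highest newly transcribed one. Uqcr11, a small subunit of complex III, differed by -3.18 ± 0.36 and Ndufb10, a subunit of complex I, by -2.97 ± 0.38. The count of higher subunits was 1 or 2 without newly transcribed array 1 or 2 or any 1 total array.

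Lysosomal proteins had 17 of 27 members called lower and none higher, with a median of -1.44. The count was 12 to 17 without any 1 array, and 18 and 16 with either pair of newly transcribed arrays. Summed signals were 13070 to 19440 in newly transcribed and 32340 to 39970 in total RNA. Glb1, a beta-galactosidase, had 15.4, 34.7, 43.9 and 3.86 against 249, 309, 272 and 321, a difference of -3.03 ± 0.33 (limma adjusted p = 0.001), and its dimmer probe set was called lower at -1.13. Ctsa, a protective cathepsin, had 159, 213, 406 and 63.2 against 1030, 1030, 1360 and 1220 (-2.61 ± 0.45). The acid glucosidase gene Gaa differed by -2.44 ± 0.37 and the mannosidase gene Man2b1 by -2.40 ± 0.37, without overlap. A dim second probe set of Man2b1 gave 0.52 ± 0.40, and averaging both ended the call (-0.94). Macrophage markers, with 2 of 17 lower, have a median of -0.87 in the same comparison, and their part in the lysosomal values was not tested. Ctss is in both lists.

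Collagens and fibril proteins had 17 of 58 members called lower and none higher, with a median of -0.62 and 12 to 19 lower without any 1 array. Col3a1, the chain of type III collagen, had 986, 923, 1420 and 1100 against 3780, 3170, 4360 and 3590, a difference of -1.75 ± 0.17 (limma adjusted p = 0.00074). Both groups were tight, and its other probe sets were called lower at -2.56 and -1.68. Col8a1 differed by -2.83 ± 0.58. Col1a1 differed by -2.11 ± 0.57 (limma adjusted p = 0.037). That call was lost without newly transcribed array 1 (-1.66) or 4 (-1.85) and without any 1 total array (-2.04 to -2.20), and a second probe set of Col1a1 gave -0.85 ± 0.85. Col1a2, whose product pairs with that of Col1a1 in type I collagen, differed by -0.82 ± 0.19, and its call was lost without total array 2 (-0.83), 3 (-0.80) or 4 (-0.82). Genes of collagen processing and the secretory pathway had 11 of 25 lower and 1 higher, with a median of -0.79 and 9 to 11 lower without any 1 array. Sec61b, a subunit of the translocation channel of the endoplasmic reticulum, differed by -2.95 ± 0.36. The disulfide isomerase gene Pdia6 differed by -2.71 ± 0.24 and the prolyl isomerase gene Ppib by -2.54 ± 0.26. Other probe sets of Pdia6 disagreed, with -2.56, called lower, and -0.07 ± 0.32, not called.

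Cytosolic ribosomal proteins had 14 of 36 members lower and 1 higher, with a median of -0.51, but the count of lower ones rested on the number of arrays. It was 8 and 5 without newly transcribed array 1 or 4, and 3, 3, 4 and 4 without total array 1, 2, 3 or 4. Rps7 had 249, 980, 1170 and 505 against 3870, 3970, 3540 and 3690, a difference of -2.57 ± 0.44 (limma adjusted p = 0.006). Newly transcribed arrays 1 and 4 were lower than arrays 2 and 3, and total RNA varied little. The 1 member called higher, Rpl7l1 (2.24 ± 0.25), is an L7-like relative of the canonical ribosomal protein genes. Ribosomal protein probe sets can also read pseudogene copies, so values of single members are uncertain. Translation factors had 5 of 45 higher and 6 lower and a median of 0.08, near the shares of all genes, and without total array 2, 3 or 4 the counts fell to 3 higher and 1, 1 or 2 lower. Aminoacyl-tRNA synthetases had 1 of 22 in each direction.

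Imprinted and noncoding transcripts had 7 of 18 lower and none higher, with a median of -0.82 and 6 to 7 lower without any 1 array. Cdkn1c, an inhibitor of cyclin-dependent kinases expressed from the maternal allele, had 149, 65.7, 62.7 and 161 against 614, 382, 974 and 488, a difference of -2.34 ± 0.38. Its newly transcribed arrays 2 and 3 lay below arrays 1 and 4. Mest, a paternally expressed gene, differed by -1.86 ± 0.32, Plagl1 by -2.64 ± 0.35 and Grb10 by -2.97 ± 0.28. The other probe sets of Grb10 disagreed, with -4.06 for one and 0.42 for another, both called. Heat shock proteins and chaperones had 2 of 25 higher and 1 lower, and the proteasome 4 of 44 in each direction, both near or below the shares of all genes. The proteasome counts were 2 higher without total array 2, 3 or 4 and 7 lower without newly transcribed array 2.

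SMAD, BMP and inhibitor of differentiation genes had 4 of 21 members higher and 1 lower, with a median of 0.53. Smad1, a transducer of BMP signals, had 2530, 1430, 1330 and 3720 against 485, 520, 610 and 457, a difference of 1.97 ± 0.33 (limma adjusted p = 0.0054). The total values were alike, and newly transcribed arrays 1 and 4 were the highest. Ubiquitin ligases and F-box proteins had 6 of 22 higher and 2 lower, but 1 higher without newly transcribed array 1 or 4 or total array 2, 3 or 4, and 2 without total array 1. Histone genes had 4 of 19 lower and none higher, and circadian clock genes 3 of 16 higher and 1 lower. Actin and tubulin cytoskeleton genes had 4 of 37 higher and 3 lower with a median of -0.02, and 2 higher without newly transcribed array 1 or 4 or total array 1, 2 or 4. With newly transcribed arrays 2 and 3 alone 9 were higher and 5 lower (median 0.31), and with arrays 1 and 4 alone 6 were higher and 14 lower (median -0.22).

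**Figure D4:**
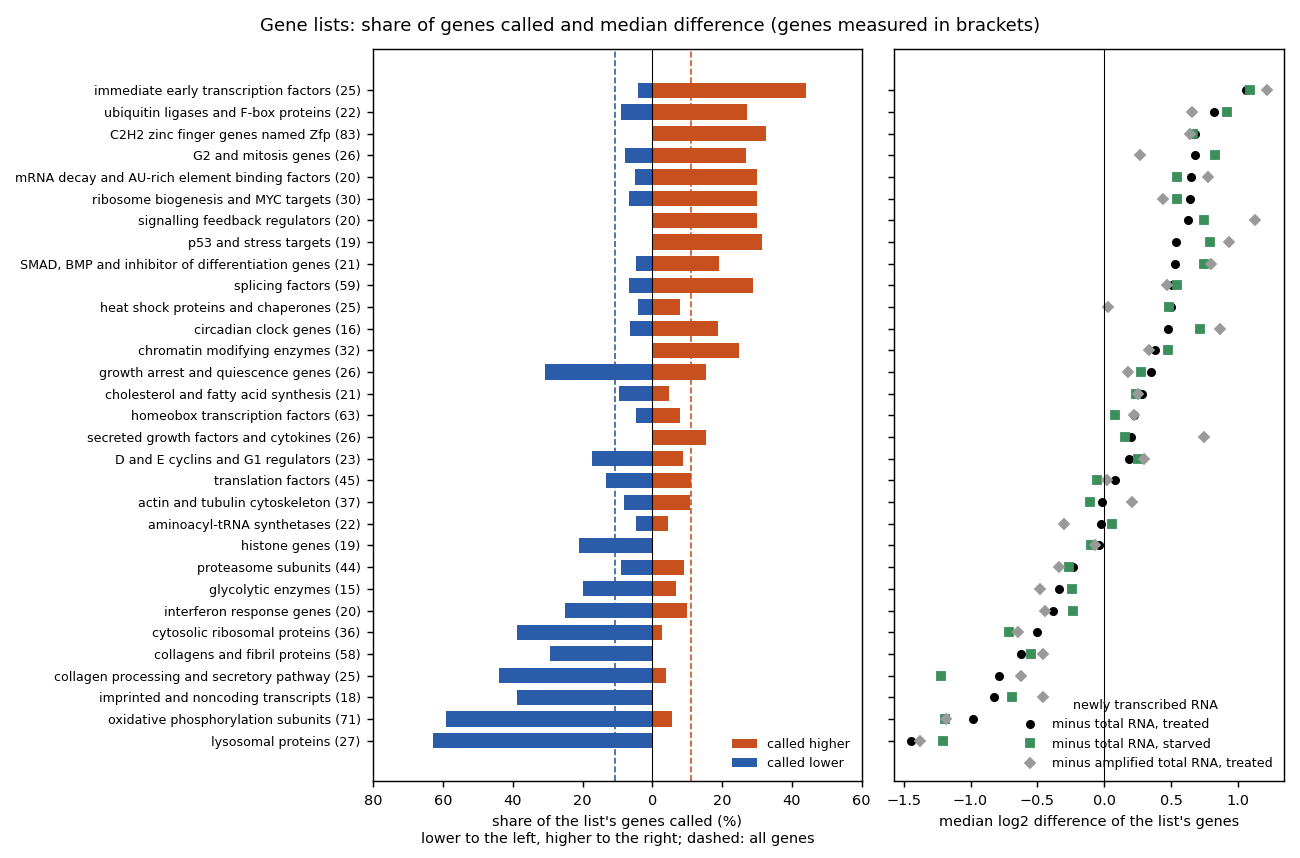
Left: share of each list's measured genes called higher (orange, to the right) or lower (blue, to the left) in newly transcribed than in total RNA, with dashed lines at the shares of all genes, 11% and 10.6%. Right: median log2 difference of each list against total RNA in treated cells (black), against total RNA in starved cells (green) and against amplified total RNA in treated cells (grey), running from -1.44 for lysosomal proteins to 1.06 for immediate early factors in black.

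Beta-actin, often used as a reference gene, showed how the newly transcribed arrays split. Its brightest probe set had 1120, 25.0, 40.9 and 3500 in newly transcribed, 357, 661, 325 and 359 in total, and 2580, 111, 119 and 1800 in amplified total RNA. Arrays 1 and 4 lay above and arrays 2 and 3 below total RNA, in newly transcribed and in amplified RNA alike. The Actb difference was -0.45 ± 1.39 (limma adjusted p = 0.88), -3.13 with newly transcribed arrays 2 and 3 alone and 2.24 with arrays 1 and 4 alone, both called. The dimmer Actb probe set gave -0.53 ± 0.50.

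Amplified total RNA showed, gene by gene, how much of a difference was present between 2 preparations of total RNA. On the log2 scale the difference from unamplified total RNA is the sum of the difference from amplified total RNA and of that between amplified and unamplified total RNA, and all of them share arrays. For the probe sets called higher the medians were 1.24 against total RNA, 0.78 against amplified total RNA and 0.55 for amplified minus unamplified total RNA. For those called lower they were -1.42, -1.01 and -0.48. Because the probe sets were chosen with the same newly transcribed and total RNA arrays, these medians are partly set by the choice. Against amplified total RNA 152 probe sets (1.22%) were called higher and 351 (2.83%) lower, or 1376 and 1250 with a replicate block, since same-numbered arrays of these kinds deviated together (0.56 to 0.73).

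The named genes divided on this point. Ogn had -3.76 ± 0.26 against amplified total RNA (limma adjusted p = 0.0016), Itm2a -3.67 ± 0.49, Apoe -3.52 ± 0.65, Atp5e -2.57 ± 0.30 and Cdkn1c -2.92 ± 0.35, all called there as well. For Nfix the amplified arrays had 64.8, 113, 78.8 and 339, each above the newly transcribed array of the same number, and the difference was -0.54 ± 0.60, or ± 0.20 with the replicate block (limma adjusted p = 0.12). The Nfix difference between amplified and unamplified total RNA was -3.42 (limma adjusted p = 0.013). Plagl1 had -0.38 ± 0.39 and -2.26 in the same comparisons and Prrx1 -0.08 ± 0.23 and -1.75, the latter values both called without the block and not with it (limma adjusted p = 0.054 and 0.08). Timp2 had -0.42 ± 0.58 and -3.07, the latter called with the block only (limma adjusted p = 0.044, against 0.053). None of these 4 genes was called against amplified total RNA, with or without the replicate block, which does not show that the values were equal. Grb10 had -0.65 ± 0.19 against amplified total RNA, called with the block only (limma adjusted p = 0.036, against 0.12). Pdia6 had -0.67 ± 0.31 there, not called either way. Amplified minus unamplified total RNA gave -2.32 for Grb10 and -2.04 for Pdia6, both called with and without the block.

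At the other end, Nup50 had 1.81 ± 0.35 against amplified total RNA (limma adjusted p = 0.033), Nifk 1.58 ± 0.29, Foxc2 2.12 ± 0.38, Mfhas1 1.11 ± 0.22, Klf2 1.86 ± 0.38, Ddit4 1.60 ± 0.20 and Gar1 0.99 ± 0.20, all called there. Nup54 had 1.82 ± 0.58, called only with the replicate block (limma adjusted p = 0.0031, standard error 0.14, against 0.14 without it). Amplified minus unamplified total RNA gave 2.56 for Nup54, called without the block and not with it (limma adjusted p = 0.047 and 0.092), 2.15 for Smarcd2 and 1.74 for Plk1, and Plk1 differed from amplified total RNA by 0.31 ± 0.27. The chaperonin gene Cct6a showed 1.20 ± 0.18 against total and 0.10 ± 0.21 against amplified total RNA. Rbm14 had 0.84 ± 0.21 against amplified total RNA, called with the block only (limma adjusted p = 0.031, against 0.075). Its difference between both total preparations was 1.56, called with and without the block. Among lists, the medians against amplified total RNA were 1.21 for immediate early factors, -1.18 for oxidative phosphorylation and -1.38 for lysosomal proteins, and those between both total preparations were -0.09, 0.12 and 0.09. Heat shock proteins had medians of 0.03 and 0.41, and G2 and mitosis genes 0.27 and 0.28.

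The identifiers of 6 of the 15 genes with the largest positive differences (Ints5, Smarcd2, Foxc2, Taf1d, Sema4b and Pkp2) end in the suffix that the array's maker gave to probe sets matching several sequences of a family, against none of the 15 with the largest negative ones. This count was made after the values were seen. Of all probe sets 1075 (8.65%) carry that suffix, of those called higher 182 (15.5%) and of those called lower 74 (6.16%). Between amplified and unamplified total RNA, 204 probe sets (1.64%) were called higher and 177 (1.42%) lower, and 64 of the higher (31.4%) and 6 of the lower (3.39%) carried it. With a replicate block, used because these arrays too deviated together by number (0.14 to 0.3), 36 of 89 higher (40.4%) and 6 of 102 lower (5.88%) did. Against amplified total RNA it was 11 of the 152 called higher (7.24%), or 74 of 1376 (5.38%) with the block. Rbm14, Nop58, Plk1, Socs3, Cct6a, Actn1 and the bright Actb probe set are among the others with the same suffix. Which transcript such a probe set read was not tested.

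In starved cells, whose arrays are separate, the same kinds of RNA were compared in the same way. There 1791 probe sets (14.4%) were called higher and 1618 (13%) lower in newly transcribed than in total RNA. Of the 1175 called higher in treated cells 981 (83.5%) were called higher in starved cells, and of the 1201 called lower 995 (82.8%) were called lower, with 0 called in the opposite direction. The medians of these groups were 1.32 and -1.37 in starved cells, against 1.24 and -1.42. Across probe sets the differences of both conditions correlated at 0.933 (Pearson) and 0.872 (Spearman), as a description without a test, since genes are not replicates and the conditions share the preparation of each kind of RNA and paired replicate numbers. Nup54 differed by 4.21 in starved cells, Smarcd2 by 3.08, Atp5e by -3.69 and Nfix by -3.94. Ogn differed by -3.48 and Itm2a by -2.31.

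**Figure D5:**
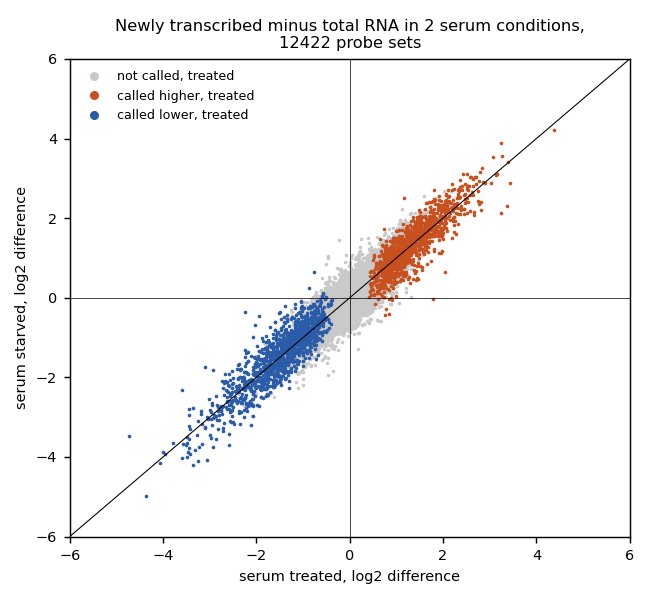
Log2 difference of newly transcribed minus total RNA in serum-treated cells (x axis) against that in starved cells (y axis) for 12422 probe sets, with those called higher in treated cells in orange and those called lower in blue and the line of equality in black. Most called probe sets lie near the line, with 1166 of 1175 and 1194 of 1201 on the same side of 0 in both conditions.

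Whether the difference between newly transcribed and total RNA itself changed with serum was tested as an interaction over 16 arrays. No probe set was called (smallest limma adjusted p = 0.674), and 299 had an unadjusted p below 0.05. With the replicate number as a block for each kind of RNA, 0 were called (smallest adjusted p 0.161) and 1343 had an unadjusted p below 0.05. With newly transcribed arrays 2 and 3 alone 6 probe sets were called. The 5 genes with the smallest interaction p were Ung, Slc6a2, BC051019, Noct and Tpm3. Noct, a rhythmic phosphatase gene induced by serum, had a difference of 0.73 ± 0.13 in treated and 1.73 in starved cells, and Ung, a DNA repair glycosylase, of -0.67 ± 0.15 and -1.44. Neither interaction passed adjustment. Other probe sets gave -1.06 and 1.40 for Noct and 0.76 for Ung in treated cells. A test that calls nothing does not show that the differences were equal.

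Probe sets of a gene did not always agree. Of 2073 genes with several probe sets, 725 had at least 1 called, and in 429 of these all probe sets had the same sign. In 90 genes every probe set was called the same way, and 17 had probe sets called in both directions. The cholesterol exporter gene Abca1, chosen after its values were seen, was one of these, with 1.80 for its bright probe set and -1.22 for its dim one. Among the genes with the largest positive differences, dimmer probe sets of Nup50 (0.41), Ints5 (0.76), Foxc2 (0.36), Sema4b (0.11 and 0.09) and Bysl (-0.07) were not called, and of those of Pkp2 1 was called (0.78) and 1 was not (0.12). At the other end those of Timp2 (-0.39 and -0.15), Elob (-0.28) and Fmod (-0.12) were not called. Nor were dim probe sets of other named genes, among them Fos (-0.05), Egr1 (0.15), Gar1 (-0.14), Atp5l (-0.05) and Ndufb10 (0.16). Averaging all probe sets of a gene turned the sign of the called genes Actn1 (1.15 to -0.07), Mvk (-0.87 to 0.20) and Ung (-0.67 to 0.04) and ended the call of 14 other named genes.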

How the data were processed

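The deposited series table holds 1 intensity per probe set and array of the MG_U74Av2 design, and how probes were summarised and scaled is not given in the sources used here. Titles gave the groups. Intensities were quantile normalized over the 23 arrays and taken as log2(value + 16). Newly transcribed and total RNA were compared by moderated linear models of their 8 arrays with no block (limma 3.58.1 under R 4.3.3), adjusted over 12422 probe sets by the Benjamini-Hochberg method. The fit was tested on simulated data. A gene stands for its brightest probe set, and 10833 probe sets have 1 symbol in the platform annotation. Atf1 was not analysed here for want of such a probe set.

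Named genes were the 15 largest differences each way among called genes with both groups fully apart, the 4 largest called members of each list, 5 genes with the smallest interaction p and a fixed set. Members and lists were chosen with earlier results of these data known. Same-numbered newly transcribed arrays of treated and starved cells deviated together (correlations of 0.7 to 0.8), as did total RNA arrays (0.23 to 0.7) newly transcribed and amplified total arrays (0.56 to 0.73) and amplified total and total arrays (0.14 to 0.3). Blocked values of named genes against amplified RNA were added after seeing the data. The alternatives were other scalings, pseudocounts of 1 and 64, a filter on probe sets below 6 on the log2 scale, 1 fit over all arrays, an intensity trend, a replicate block, averaged probe sets and arrays left out. Promoters came from RefSeq (GRCm38.p6), matched for 6576 of 8251 genes. Figures were drawn with matplotlib 3.10.9.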

Additional observations from a re-analysis of the deposited data

Results flagged for a closer look

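Among 324 groups of 4 arrays looked at for the named genes, 24 held an array far from the other 3, by a gap that takes most of the group's range. Chance alone marks about 1 in 20 groups. In newly transcribed RNA, array 1 was low for Foxc2 (677, the others 1410 to 1520) and Snrpg (66.0, the others 138 to 157) and high for Taf1d (2720, the others 1300 to 1360). Array 2 was high for Ppib (377, the others 161 to 178) and Rbm14 (563, the others 398 to 422) and low for Vim (18.8, the others 36.4 to 38.0). Array 3 was low for St13 (226, the others 264 to 271). Array 4 was low for Hoxa4 (54.5, the others 102 to 109) and Tmsb10 (180, the others 451 to 511).

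In total RNA, array 1 was low for Nup50 (62.3, the others 124 to 136), Timp2 (660, the others 2650 to 2890), Zfp105 (69.8, the others 114 to 122), Man2b1 (855, the others 1180 to 1230), Cdkn2d (27.2, the others 78.6 to 84.5) and Eef1a1 (7480, the others all near 8240). Array 2 was high for Actb (661, the others 325 to 359), Elob (2890, the others 2380 to 2420), Uqcr11 (594, the others 308 to 319) and Mvk (132, the others 118 to 120) and low for Lhx8 (6.83, the others 21.9 to 24.2). Array 3 was high for Tpm3 (266, the others 154 to 163). Array 4 was high for Mfhas1 (149, the others 80.4 to 87.4) and low for Plk1 (21.2, the others 42.9 to 48.7) and Mbp (30.6, the others 45.2 to 48.0).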

How the results depend on the processing

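The count of called probe sets stayed within 1.5 times its value of 2376 under the other scalings, pseudocounts, the filter on dim probe sets, 1 fit over all arrays and the intensity trend, at 2045 to 2470. It was 4005 with newly transcribed arrays 1 and 4 alone, and 1530 to 2311 without any 1 array. With a replicate block it was 2197 (1100 higher, 1097 lower). That pairing rests on the number alone, since same-numbered newly transcribed and total arrays correlated at 0.053 to 0.2 and only arrays 1 and 3 correlated best with their own number. Fos had a limma adjusted p of 0.061 with the replicate block. The interaction with serum gave 0 calls except with newly transcribed arrays 2 and 3 alone, where it gave 6. Of the 153 called named genes, 94 were called under every alternative, 111 to 141 without any 1 array. Actb, at -0.45 with all arrays and not called, was 0.53 and 0.37 without newly transcribed array 2 or 3, -1.62 without array 4 and 2.24 with arrays 1 and 4 alone. With arrays 1 and 4 alone Hes1 was -0.27, Junb -0.51, Zfp36 -0.15 and the median of cholesterol and fatty acid synthesis -0.12. With arrays 2 and 3 alone the medians were -0.070 for growth arrest genes, 0.067 for the proteasome and 0.11 for interferon response genes. The interaction value of Ung was -0.076 with values as deposited. Averaging probe sets gave -0.0675 for Actn1, 0.20 for Mvk and 0.044 for Ung. The cause of these changes was not tested. Probe sets near the background limit small differences.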
